A study of Rattus norvegicus with 12 samples.

Results

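The genes described here encode the nuclear subunits of respiratory complexes II, III, IV and V and cytochrome c. They were chosen by their current rat symbols: Sdha to Sdhd, names that start with Uqcr, with Cox4 to Cox8 or with Atp5, and Cyc1 and Cycs. Of 15715 genes with a named probe on the array, 47 met the rule, and 46 of them were bright enough to test among 11211 tested genes. The tested members were 4 genes of complex II, 9 of complex III, 16 of complex IV, 16 of complex V and Cycs. The gene left untested was Cox8c, a testis form of subunit 8, whose probe was well above background on 0 of 12 arrays. Cox6c-ps1 is a transcribed pseudogene close in sequence to Cox6c, so its signal is uncertain.

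RNA came from the left ventricles of male Sprague-Dawley rats that all ate 60% fructose for 8 weeks, a diet used to model metabolic syndrome. The chow held either 0.64% NaCl (normal sodium) or less than 0.01% NaCl (low sodium), and part of each diet arm received angiotensin II (AngII), the effector peptide of the renin-angiotensin system, under the skin at 200 ng/kg/min during the last 4 weeks. Uninfused rats form the normal sodium and the low sodium group, and infused rats the same names followed by "with AngII", which makes 4 groups. Each had 3 one-colour Agilent arrays, and the labels neither number the animals nor state pooling, so p-values measure the spread between these samples. No group ate a diet without added fructose.

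Complex II oxidises succinate in the citric acid cycle and passes the electrons to ubiquinone. Complex III hands them on to cytochrome c, complex IV reduces oxygen with them, and complex V uses the proton gradient built by the chain to make ATP. The heart depends on this pathway for nearly all of its ATP, and its mitochondria carry striated muscle forms of several complex IV subunits. A transcript level is not an enzyme activity, and in whole ventricle fewer cells of a type and less RNA per cell cannot be told apart.

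Promoters of these genes are known targets of the transcription factors NRF1, GABPA (an ETS factor), YY1 and the oestrogen-related receptors (ERR), which co-ordinate mitochondrial genes. RefSeq promoters (build GRCr8, 250 bases before to 50 after the gene start) were matched for 38 of the 46 members. On either strand, the NRF1 word GCGCATGC stood in 7 members (18.4%) against 2.66% of all 27457 promoters. The ETS word CCGGAAG stood in 14 (36.8%) against 9.22%, the YY1 word AGATGGC in 9 (23.7%) against 6.71%, and the ERR word CAAGGTCA in 2 (5.26%) against 1.48%. At least 1 of the 4 words was present in 20 members (52.6%) and in 18.3% of all promoters. Matches of different words could overlap, and a match is a description of letters, not of binding.

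The 200 bases before the start are printed for Atp5me, which held 3 of the words, and for Sdhc, Cox6a2 and Cox7b, on which results below turn. Cox4i2 and Cox6a1 had no matched promoter. Capitals mark the words. In Atp5me they are, from left to right, the YY1 word, a run in which 2 NRF1 matches on opposite strands overlap, and the ETS word. The other 3 stretches hold none, and the YY1 word of Sdhc lies outside its printed stretch. The positions are chr14:1464660-1464859 on the plus strand for Atp5me, chr13:86098026-86098225 on the minus strand for Sdhc, chr1:192219717-192219916 on the minus strand for Cox6a2 and chrX:75148836-75149035 on the plus strand for Cox7b.
Atp5me: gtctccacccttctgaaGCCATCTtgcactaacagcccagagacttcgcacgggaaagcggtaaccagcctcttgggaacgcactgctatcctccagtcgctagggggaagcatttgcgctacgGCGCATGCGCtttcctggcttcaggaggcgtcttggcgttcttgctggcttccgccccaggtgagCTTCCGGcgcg
Sdhc: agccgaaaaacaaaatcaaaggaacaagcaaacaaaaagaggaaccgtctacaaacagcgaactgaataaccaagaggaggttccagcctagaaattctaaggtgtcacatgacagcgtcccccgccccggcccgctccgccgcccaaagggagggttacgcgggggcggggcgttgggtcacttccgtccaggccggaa
Cox6a2: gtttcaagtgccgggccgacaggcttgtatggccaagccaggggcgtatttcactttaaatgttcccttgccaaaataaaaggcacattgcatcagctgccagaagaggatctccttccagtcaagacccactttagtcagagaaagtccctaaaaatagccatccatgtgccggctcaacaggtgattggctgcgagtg
Cox7b: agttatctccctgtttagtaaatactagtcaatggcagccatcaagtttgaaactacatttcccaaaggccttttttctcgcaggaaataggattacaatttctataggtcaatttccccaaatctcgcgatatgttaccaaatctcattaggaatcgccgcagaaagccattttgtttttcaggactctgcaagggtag

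Levels are log2 signal minus the 75th percentile of each array, so a level of 0 equals that percentile and 1 unit is a factor of 2. All 46 tested members were well above background on all 12 arrays, with no saturated spot. Mean levels were at least 4 for 41 members, from 4.02 for the probe of Sdhc to 7.59 for that of Cox6a2. The 5 others were Cox6b2 (1.49), Cox4i2 (1.46), Cox6c-ps1 (1.18), Cox7c (1.06) and Uqcrq (-0.93). Probes differ in efficiency, so these levels do not rank the transcripts. Heart muscle cells were present on every array by their markers: 9 of 10 cardiomyocyte genes were measured, among them the myosin gene Myh6 and the troponin gene Tnnt2, both well above background on 12 arrays. The atrial markers Myl7, Myl4, Sln and Nr2f2 were also well above background on 12 arrays.

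Group means of a member lay close together. The distance between the highest and the lowest of the 4 group means was 0.19 in the median member and 0.46 at most. Each of the 3 slides carried 1 array of every group under one replicate number. The slide means differed by 0.16 in the median member, and for 22 of 46 members the slides differed more than the groups. The 2 distances are not like measures, since there are 4 group means of 3 arrays each and 3 slide means of 4 arrays each. Cox7c, a small structural subunit of complex IV, averaged 0.58 on slide 1 against 1.31 on slide 2 and 1.29 on slide 3. Cox6c-ps1 was also lowest on slide 1, with 0.68 against 1.35 and 1.52. Each group kept one position on the slides, so position and group cannot be told apart. The normal sodium array of replicate 1 had the lowest array weight (0.28) and 88 non-uniform spots, and it held the highest or lowest of the 12 values for 25 of the 46 members. Low sodium replicate 2 and low sodium with AngII replicate 3 held 17 extremes each, the first all highest values and the second 16 lowest values and 1 highest.

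**Figure D1:**
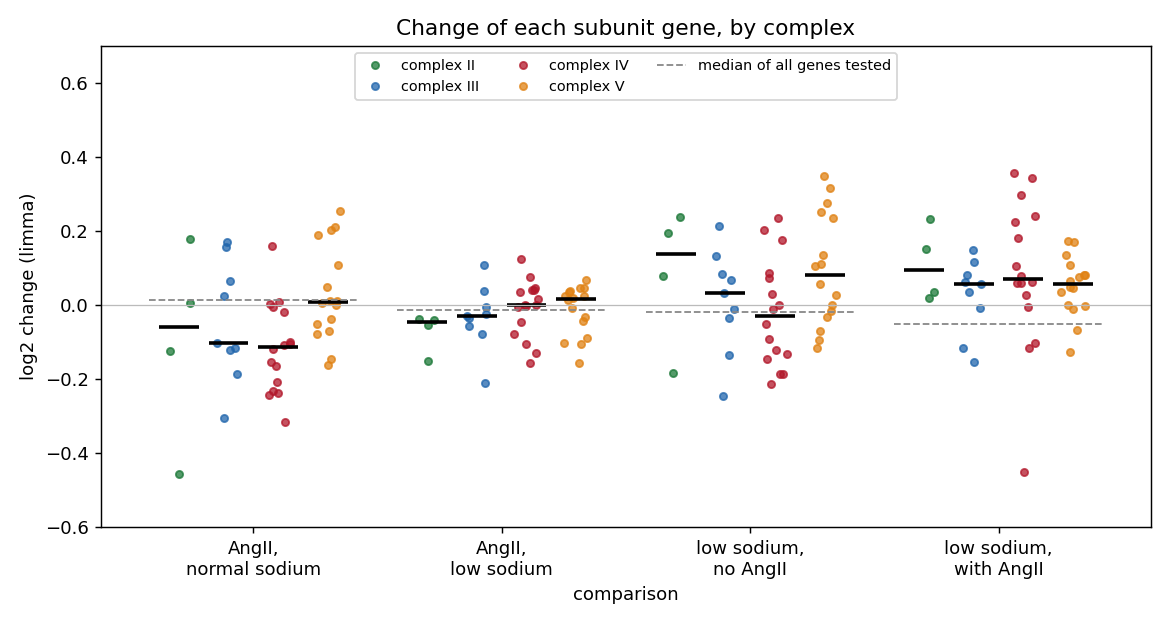
The log2 change of every tested subunit gene (points, 1 per gene, coloured by complex) in the 4 comparisons of single groups, with the median of each complex (black bars) and of all genes tested (dashed lines). Most points lie within 0.2 of 0, complex IV sits lowest in the AngII comparison on normal sodium with a median of -0.11, and the 2 lowest points are Sdhc (-0.46) and Cox4i2 (-0.45).

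AngII on normal sodium, the comparison that shows the peptide's effect without salt restriction, left the subunit genes without a called change. Of 46 members, 19 stood above 0 and 27 below, with a median log2 change of -0.053 against 0.014 for all genes tested. In the limma fit, with p-values adjusted by Benjamini-Hochberg across 20020 probes, 0 members passed at 0.05, and the background was 0 of 11211 genes (0%). At an unadjusted p under 0.05, no member was higher (background 4.36%) and 1, Sdhc, was lower (background 3.54%). Over all probes 1448 met that unadjusted level. When the percentile was taken over probes counted once, the split was 11 above and 35 below, and in the authors' values it was 22 and 24 with a median of -0.015. Without normal sodium replicate 2 the split was 25 above and 21 below and the median 0.027, so the side of 0 rested on that array.

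By complex, complex IV leaned furthest: 13 of its 16 genes were below 0, with a median of -0.11, and that median lay between -0.14 and -0.058 under the other settings. Its median level was 5.93, 5.88 and 5.88 on the normal sodium arrays and 5.68, 5.59 and 5.76 on those with AngII. The 2 groups did not overlap, but how often that held for all genes tested is not given here. The slide differences of its genes had medians of -0.082, -0.16 and 0.012, so slide 3 did not share the lean. The lowest change in the complex was that of Cox7a2l, a relative of subunit 7a that helps join complexes III and IV into supercomplexes, at -0.32 ± 0.17 (limma standard error, n = 3 per group, adjusted p = 0.671 in limma). It stood at -0.064 in the authors' own values and at -0.16 without normal sodium replicate 1. The highest was Cox4i2 at 0.16.

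Complex III had 4 genes above 0 and 5 below, with a median of -0.10. Uqcr11, one of its small subunits, stood at -0.31, but its level was 7.07 on normal sodium replicate 1 and between 6.23 and 6.41 on the other 11 arrays. The other probes of Uqcr11 stood at -0.17 and -0.053. Uqcrfs1, the Rieske iron-sulphur protein that passes electrons to cytochrome c1, stood at 0.17, and the slides gave 0.21, 0.14 and 0.16. That value was -0.032 after normexp background correction. Complex V had 10 genes above 0 and 6 below, with a median of 0.0091. Atp5f1c, the gamma subunit that forms the rotating shaft of ATP synthase, stood highest at 0.25, and Atp5pb, the b subunit of the peripheral stalk, lowest at -0.16.

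Sdhc encodes a membrane anchor of complex II that binds haem and ubiquinone. Its level was 4.66, 4.17 and 3.86 on normal sodium, 3.72, 3.71 and 3.91 with AngII, 4.09, 4.13 and 3.92 on low sodium, and 3.87, 4.05 and 4.11 on low sodium with AngII. The first 2 groups overlapped at slide 3. The difference was -0.46 ± 0.18, or 1.37-fold lower (limma, unadjusted p = 0.0291, adjusted p = 0.667, n = 3 per group). It was -0.24 without normal sodium replicate 1, the array noted above, and -0.21 in the authors' values. The other 3 genes of complex II stood at 0.0056 (Sdha, the flavoprotein), 0.18 (Sdhb, the iron-sulphur subunit) and -0.12 (Sdhd, the second anchor).

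**Figure D2:**
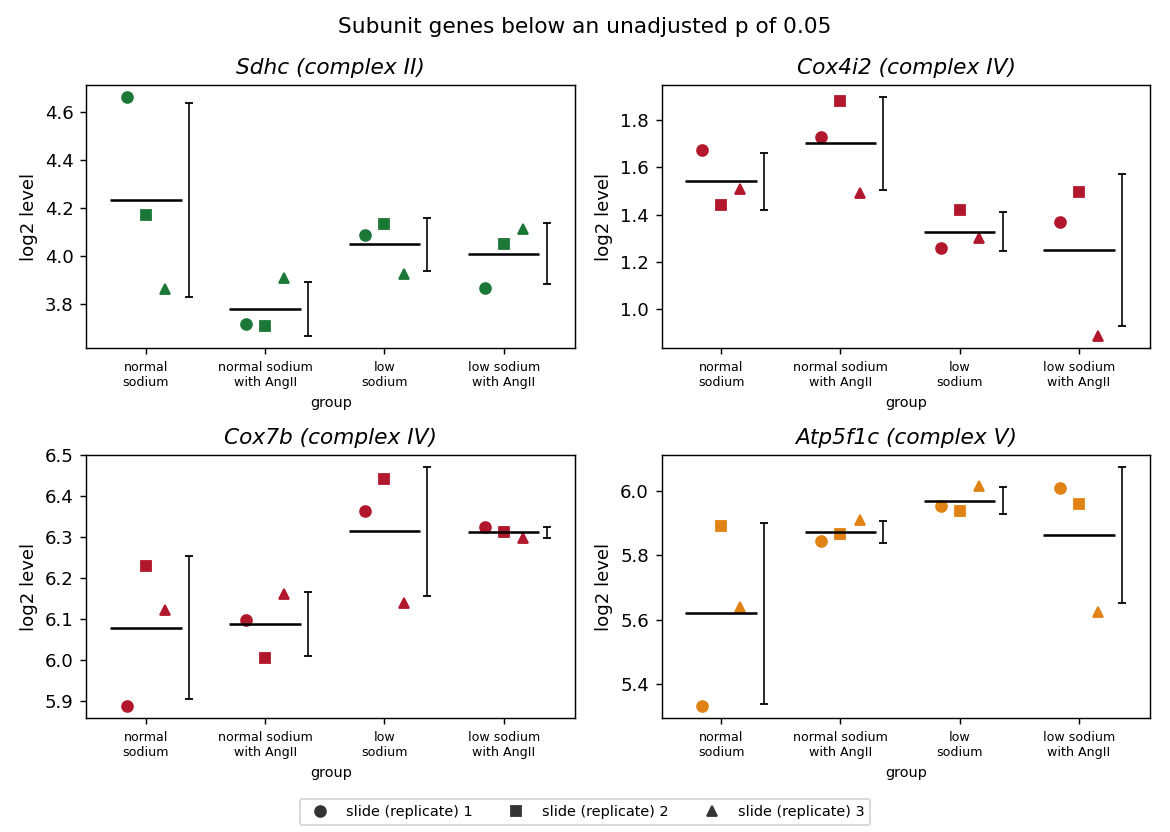
The log2 level of Sdhc, Cox4i2, Cox7b and Atp5f1c on each of the 12 arrays, by group, with a marker shape for each slide, the group mean (bar) and the standard deviation over 3 arrays (whisker at right). Axes do not start at 0. Sdhc spans 3.86 to 4.66 within normal sodium alone, and Cox7b is at 6.14 or higher on every low sodium array.

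On low sodium the AngII values of the subunit genes lay close to 0, with a median absolute log2 change of 0.041. They ran from -0.21 to 0.13, with 19 members above 0, 27 below and a median of -0.0061 (all genes -0.013). No member passed the adjusted test (background 0%), and none was below an unadjusted p of 0.05 in either direction, where the background was 0.928% higher and 0.856% lower, or 342 of 20020 probes. The split was 26 above and 20 below after quantile normalisation and 25 and 21 with probes counted once, so the side of 0 depended on the scaling. It also depended on single arrays: leaving out low sodium replicate 2 gave a median of 0.050, leaving out its replicate 3 gave -0.080, and dropping replicate 3 of the infused group gave 0.041. For 42 of the 46 members the 95% interval of the change lay within 0.5 log2 units of 0. All 4 genes of complex II were below 0 with a median of -0.046, complex III had a median of -0.029 with Uqcrc1, a core protein, lowest at -0.21, and complexes IV and V had medians of -0.00028 and 0.018.

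Averaged over both diets, the AngII effect had 17 members above 0 and 29 below, with a median of -0.032. In the authors' values the split was 23 and 23. The median was -0.00018 without low sodium replicate 2 and 0.0032 without slide 2. Calls were 0 of 46 (background 0%), and 0 members met the unadjusted level in either direction (background 1.81% higher and 1.2% lower). Sdhc had the lowest value at -0.25 and Atp5if1, the inhibitor that stops ATP synthase from running backwards, the highest at 0.14.

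Low sodium without AngII was the comparison of diets in uninfused rats. Here 25 members were above 0 and 21 below, with a median of 0.031 (all genes -0.018), and quantile normalisation gave 32 and 14. The median turned to -0.056 without low sodium replicate 2 and to -0.028 without normal sodium replicate 3. No member was called (background 0%), and at the unadjusted level 1 member, Atp5f1c, was higher (background 3.09%) and 0 were lower (background 4.71%), among 1408 probes. The medians were 0.14 for complex II, 0.032 for complex III, -0.031 for complex IV and 0.080 for complex V, and the median of complex IV ran from -0.052 to 0.011 over the settings. Within complex V the 4 genes of the peripheral stalk had a median of 0.14 and the 2 genes of the membrane ring, Atp5mc1 and Atp5mc2, stood at -0.069 and -0.12. Atp5pf, a gene of the stalk, stood at 0.32, and the slides gave 0.89, 0.069 and -0.0072. Its level was 4.89 on normal sodium replicate 1 and 5.65 to 5.95 on all other arrays.

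Atp5f1c had levels of 5.33, 5.89 and 5.64 on normal sodium and 5.95, 5.94 and 6.02 on low sodium. These did not overlap, but the share of all genes tested without overlap is not given here. The AngII groups had 5.84, 5.87 and 5.91 on normal sodium and 6.01, 5.96 and 5.62 on low sodium. The difference without AngII was 0.35 ± 0.15, or 1.27-fold higher (limma, unadjusted p = 0.0414, adjusted p = 0.699, n = 3 per group). Without normal sodium replicate 1 it was 0.20. With AngII the same diet difference stood at -0.010. Both this value and the AngII value on normal sodium rest on the same 3 normal sodium arrays.

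With AngII in both arms, the low sodium diet put 35 members above 0 and 11 below, with a median of 0.062 against -0.050 for all genes. The authors' values gave 30 and 16. The median was above 0 whichever array or slide was left out, from 0.023 without low sodium with AngII replicate 1 to 0.14 without slide 3. Calls were 0 of 46 (background 0%), and 0 members were higher at the unadjusted level (background 4.34%) and 1, Cox4i2, lower (background 8.05%), among 2227 probes. All 4 complexes had medians above 0: 0.094 for II, 0.056 for III, 0.070 for IV and 0.057 for V. Slides 1 and 2 gave member medians of 0.14 and 0.12 and slide 3 gave -0.084.

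Averaged over both infusion states, the low sodium effect had 33 members above 0 and 13 below and a median of 0.069, while all genes had a median of -0.028. Of the members, 37 lay above that all-gene median. None was called (background 0%), although 2510 probes had an unadjusted p under 0.05. Cox7b was the 1 member higher at that level (background 4.46%) and Cox4i2 the 1 member lower (background 9.31%). Slide medians were 0.053, 0.13 and -0.029. Without one array or one slide at a time the median stayed between 0.019 and 0.092, and was 0.027 when low sodium replicate 2 was dropped and 0.030 when normal sodium replicate 3 was. All 4 genes of complex II were above 0 (median 0.12), as were 7 of 9 in complex III (0.031), 9 of 16 in complex IV (0.024) and 12 of 16 in complex V (0.077). The direction of the complex III median turned with the settings, from -0.019 to 0.055. Cycs, the soluble carrier between complexes III and IV, stood at 0.097.

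Within complex V, the peripheral stalk, which holds the catalytic head still, had 4 of 4 genes above 0 in that effect, from 0.068 for Atp5po to 0.23 for Atp5pf. The value of Atp5pf leaned on normal sodium replicate 1, where its level was 4.89 against 5.65 to 5.95 on all other arrays. The head itself had 4 of 5 above 0, with the catalytic beta subunit gene Atp5f1b at 0.10 and the alpha subunit gene Atp5f1a at -0.016. The c-ring genes Atp5mc1 and Atp5mc2, which encode the same mature rotor protein, stood at -0.036 and -0.12. The other probe of Atp5mc2 stood at 0.0017. The inhibitor gene Atp5if1 stood at 0.18, with a level of 3.97 on normal sodium replicate 1 and 4.18 to 4.78 on all other arrays. In complex III the core protein gene Uqcrc2 stood highest at 0.11 and Uqcr11 lowest at -0.10, a value that was 0.013 without normal sodium replicate 1. The other probes of Uqcr11 stood at -0.0064 and 0.0054. The highest values of complex IV, 0.27 for both Cox7c and Cox6c-ps1, belong to the genes with the widest slide differences.

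**Figure D3:**
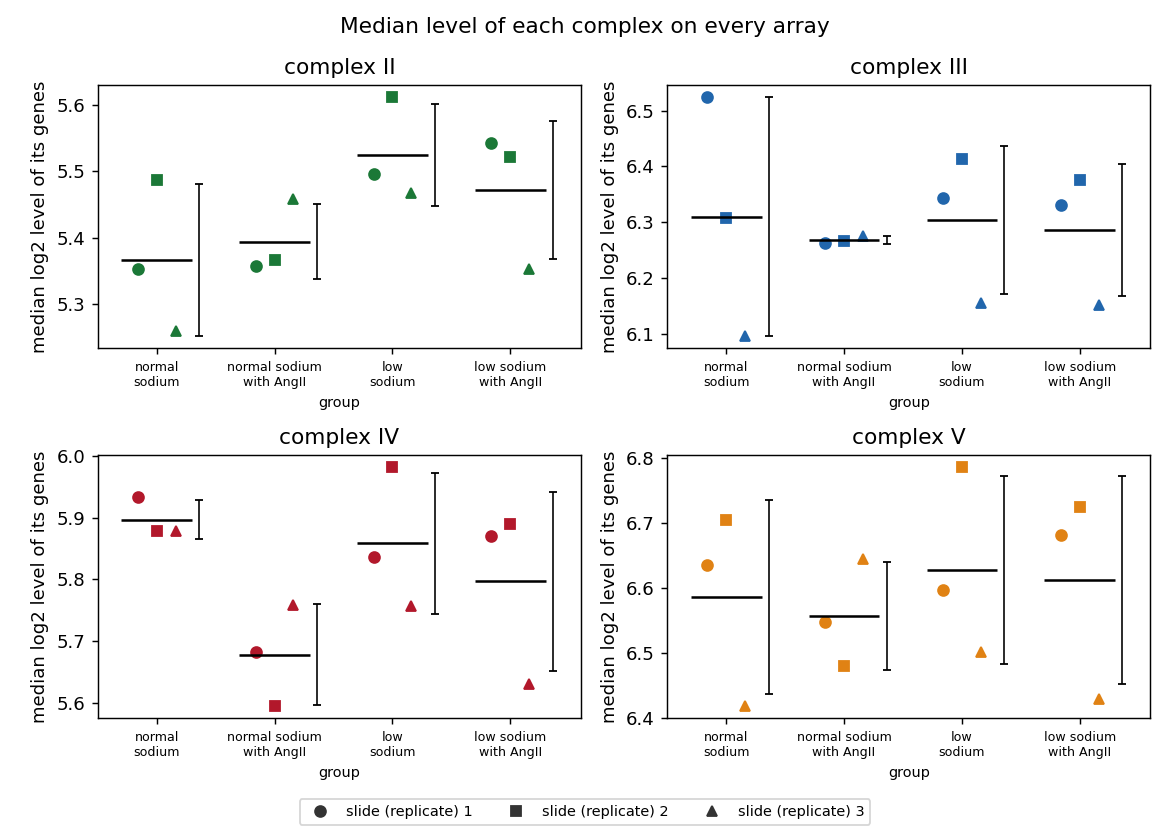
The median log2 level over the tested genes of each complex on every array, by group, with a marker shape for each slide, the group mean (bar) and the standard deviation over 3 arrays (whisker). Axes do not start at 0. In complex IV the normal sodium arrays (5.88 to 5.93) lie above those with AngII (5.59 to 5.76). In complex II the low sodium arrays (5.47 to 5.61) lie just above those of normal sodium with AngII (5.36 to 5.46). Slide 3 is the lowest array in 3 of 4 groups for complexes II, III and V.

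Cox4i2 encodes the form of subunit 4 that is best known from lung and is induced by low oxygen. Its level was 1.67, 1.44 and 1.51 on normal sodium, 1.73, 1.88 and 1.49 with AngII on that diet, 1.26, 1.42 and 1.30 on low sodium, and 1.37, 1.49 and 0.89 on low sodium with AngII. Uninfused groups did not overlap, and with AngII the groups met at 1.49. No share of all genes tested is given for this lack of overlap. The mean low sodium effect was -0.33 ± 0.12, or 1.26-fold lower (limma, unadjusted p = 0.0165, adjusted p = 0.279). Cox4i2 was lower on 3 of 3 slides, as were 25.9% of all genes tested. The effect with AngII was -0.45 ± 0.16 (limma, adjusted p = 0.374). The mean effect was between -0.40 and -0.24 when arrays or slides were left out. The effect with AngII was -0.27 without low sodium with AngII replicate 3.

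Cox7b encodes a small membrane subunit of complex IV needed for its assembly. Levels were 5.89, 6.23 and 6.12 on normal sodium, 6.10, 6.01 and 6.16 with AngII, 6.36, 6.44 and 6.14 on low sodium, and 6.33, 6.31 and 6.30 on low sodium with AngII. The infused groups did not overlap and the uninfused groups did, again without a share of all genes tested to set beside it. The mean low sodium effect was 0.23 ± 0.085, or 1.17-fold higher (limma, unadjusted p = 0.0217, adjusted p = 0.305). Cox7b was higher on 3 of 3 slides, as were 16.8% of all genes tested. The slides gave 0.35, 0.26 and 0.076.

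Complex IV is the complex with tissue-specific subunits. A pair of its forms can be compared within an array, where a shift common to all probes cancels. The difference between 2 probes has no meaning as a ratio of transcripts, but its change between groups does. Cox6a2, the heart and skeletal muscle form of subunit 6a, minus Cox6a1, the form found in most tissues, was 1.08, 1.08 and 1.02 on normal sodium, and 1.19, 1.36 and 1.11 once AngII was infused. It was 0.78, 0.88 and 1.06 on low sodium and 0.95, 0.86 and 0.79 on low sodium with AngII. With AngII the diets did not overlap, and without it they overlapped through low sodium replicate 3. The mean low sodium effect on the difference was -0.25 (exact permutation test within infusion states, two-sided, p = 0.01, adjusted p = 0.08 over 8 tests of 4 pairs). Cox6a2 itself stood at -0.12 and Cox6a1 at 0.14 in that effect. With labels exchanged only within slides, the exact permutation test gave p = 0.0625 (adjusted p = 0.167). That form has only 64 arrangements, which limits how small p can be, so no conclusion is drawn from it. After quantile normalisation the effect was -0.15 (exact permutation p = 0.07, adjusted p = 0.187).

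Cox4i2 minus Cox4i1, the common form of subunit 4, was -5.54, -6.02 and -5.67 on normal sodium and -5.58, -5.41 and -5.76 with AngII. It was -5.99, -5.95 and -5.89 on low sodium and -6.01, -5.89 and -6.28 on low sodium with AngII. The mean low sodium effect was -0.34 (exact permutation test, p = 0.02, adjusted p = 0.08), with Cox4i1 itself at 0.0095. With labels exchanged only within slides, p was 0.0625 and the adjusted p 0.167 (exact permutation), under the same limit of 64 arrangements. Cox8b minus Cox8a, the muscle and common forms of subunit 8 in rodents, had a low sodium effect of 0.012 (exact permutation p = 0.81) and an AngII effect of 0.087 (exact permutation p = 0.06, adjusted p = 0.16). After quantile normalisation its low sodium effect was 0.12 (exact permutation p = 0.055, adjusted p = 0.187). Cox6b2 minus Cox6b1, the testis and common forms of subunit 6b, had effects of -0.13 and -0.073 (exact permutation p = 0.63 and p = 0.79). AngII effects on the first 2 pairs were 0.057 and 0.019 (exact permutation p = 0.42 and p = 0.88). None of the 8 tests passed after adjustment. The c-ring genes had values of -0.018 (Atp5mc1) and -0.083 (Atp5mc2, -0.021 by its other probe) in the mean AngII effect. The muscle form Cox7a1 and the third c-ring gene Atp5mc3 are not analysed here, so their pairs were not formed.

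**Figure D4:**
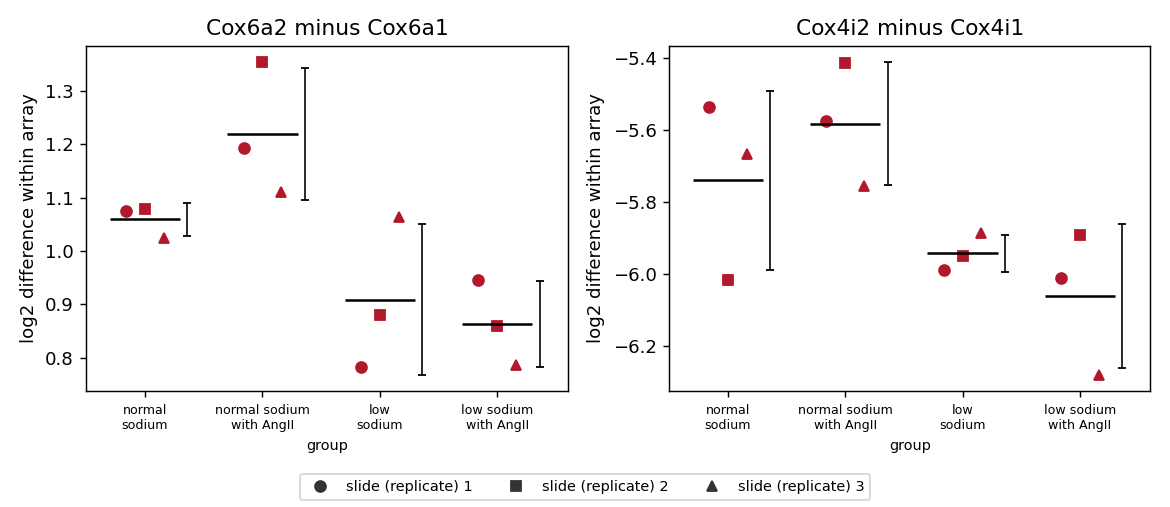
The within-array log2 difference between 2 forms of a complex IV subunit on each of the 12 arrays, by group, with a marker shape for each slide, the group mean (bar) and the standard deviation over 3 arrays (whisker). Axes do not start at 0. For Cox6a2 minus Cox6a1 the group means are 1.06 and 1.22 on normal sodium without and with AngII, and 0.91 and 0.86 on low sodium.

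The interaction asks whether AngII acted differently by diet, and is positive where the low sodium value is the higher one. Of the members, 30 members were above 0 and 16 below with a median of 0.043. The authors' values gave 22 and 24. The median turned to -0.016 without normal sodium replicate 2 and to -0.011 without low sodium replicate 3. No member was called (background 0%) or met the unadjusted level (background 2.44% higher and 3.03% lower, 1006 probes). Complex IV had 13 of 16 genes above 0, with Cox7a2l highest at 0.44, and Uqcrc1 of complex III was lowest at -0.37. For 19 of 46 members the 95% interval lay within 0.5 of 0. For the others an interaction of that size was not excluded.

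The precision set by 3 arrays per group was a median half-width of the 95% interval of 0.29 for a single comparison, 0.21 for the effects averaged over the other factor and 0.41 for the interaction. In the mean low sodium effect, 41 of 46 intervals lay within 0.5 of 0 and 46 of 46 within 1.

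Other genes of the pathway were read from lists chosen with earlier results of these data known. Of 31 measured nuclear genes of complex I, the entry point for NADH electrons, 30 were above 0 and 1 below in the mean low sodium effect (median 0.079), and none met the unadjusted level: Ndufs1 stood at 0.24, Ndufc2 at 0.22 and Ndufa9 at 0.13. Assembly factors of complexes II to V had 23 of 36 above 0 (median 0.053). The mitochondrial mRNA-binding protein gene Lrpprc stood at 0.28, Higd1a, whose product associates with complex IV, at 0.27, and Sdhaf2, which helps insert the flavin of complex II, at 0.24. A list of citric acid cycle enzymes that also held genes of the pyruvate dehydrogenase complex had 14 of 16 above 0 (median 0.080). Fumarase (Fh) stood at 0.14, and Pdhb and Dlat, both of pyruvate dehydrogenase, at 0.14 and 0.13.

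Among carriers and creatine kinases, 8 of 10 were above 0 and 4 were higher at the unadjusted level in the mean low sodium effect (background 4.46%). Slc25a4, the ADP/ATP carrier of heart, stood at 0.35, the uncoupling protein gene Ucp2 at 0.55 and the outer membrane channel gene Vdac3 at 0.22. Of 18 regulators of mitochondrial biogenesis, 10 were above 0 (median 0.045): the nuclear receptor gene Esrra, which encodes an ERR factor, stood at 0.19, Yy1 at -0.17 and Tfb2m at 0.18. No gene of these lists passed the adjusted test in that effect, where the smallest adjusted p was 0.282 in limma. The subunits encoded by mitochondrial DNA are not analysed here.

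Markers of several cell types, cardiomyocytes included, stood mostly below 0 in the same comparison, and those of others did not. In the mean low sodium effect, 8 of 8 macrophage markers were below 0 (median -0.40), as were 7 of 7 endothelial markers (-0.21) and 7 of 8 fibroblast markers (-0.29), and 8 of 9 cardiomyocyte markers (-0.066). Adgre1, the macrophage gene for F4/80, had the lowest value of these lists at -0.81 (limma adjusted p = 0.12). The summed macrophage level, in multiples of the percentile signal, ran from 8.89 to 10.3 on normal sodium, 8.07 to 10.6 with AngII, 5.74 to 9.77 on low sodium and 6.96 to 7.32 on low sodium with AngII. The summed cardiomyocyte level ran from 1418 to 1794, 1609 to 1756, 1476 to 1683 and 1353 to 1689 in the same order. The fibroblast sum ran from 48.5 to 54.8, 48.9 to 57.4, 40.5 to 41.0 and 42.6 to 47.7, and the endothelial sum from 17.4 to 29.4, 20.9 to 23.4, 17.2 to 23.2 and 18.8 to 21.3. Of 4 adipocyte markers with a probe, Lep was well above background on 0 arrays, Adipoq on 1, Cidec on 2 and Fabp4, which endothelium also expresses, on 12. All 4 atrial markers tested were above 0, with the calcium pump inhibitor gene Sln at 2.19. Their mean log2 level ran from -0.23 to 0.93 on normal sodium and from -0.57 to 0.73 with AngII. It ran from 0.17 to 1.66 on low sodium and from 0.37 to 1.66 on low sodium with AngII, so the groups overlapped. Smooth muscle and pericyte markers had 4 above and 4 below 0 (median 0.049), skeletal muscle markers 4 and 2 (0.040) and neutrophil markers 2 and 1 (0.018). Lymphocyte markers had 5 of 5 below 0 (-0.13), nerve and Schwann cell markers 5 of 5 (-0.18) and red blood cell markers 3 of 5 (-0.050). The part of these shifts in the subunit values was not tested.

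**Figure D5:**
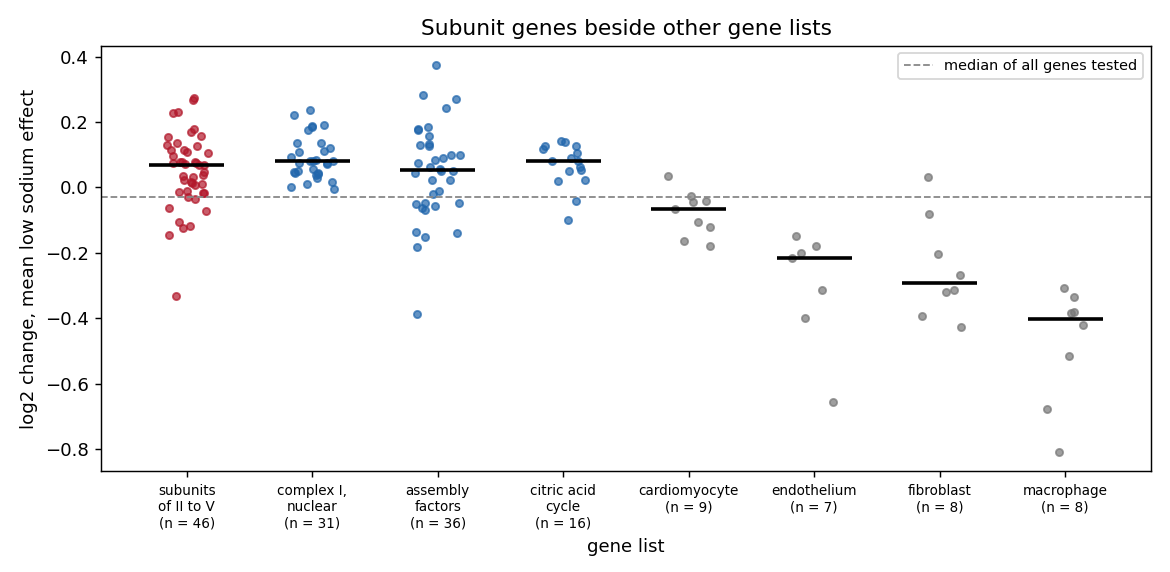
The log2 change of each gene in the low sodium effect averaged over both infusion states, for the 46 subunit genes (red), other mitochondrial lists (blue) and cell type markers (grey), with each list's median (black bar) and the median of all genes tested (dashed line, -0.028). The subunit median is 0.069, the complex I median 0.079 and the macrophage median -0.40.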

How the data were processed

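Left ventricular total RNA was labelled with Cy3 and hybridised to 12 one-colour Agilent rat arrays. The deposited intensity values are the scanner software's processed signals, background-subtracted, from Feature Extraction 10.7.3.1 per the file headers (11.0.1.1 per the submitters' processing notes). The authors also deposited a table of log2 values, used as an alternative. Here 1377 control spots and 296 to 421 outlier spots per array were left out, log2 signals were reduced by each array's 75th percentile over 42877 spots, and the spots of a probe were averaged. A probe was tested if at least 0.5 of its spots were well above background on all 3 arrays of a group (20020 of 30367 probes). Symbols came from matching accessions to RefSeq, which gave 1 symbol for 18758 probes, several for 0 and none for 11609. The brightest probe stood for a gene. All groups entered 1 limma 3.58.1 fit (R 4.3.3) with 7 contrasts, Benjamini-Hochberg adjustment over probes and a threshold of 0.05. No spot was saturated, and 3 arrays per group limit the precision.

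By rule, a comparison names the member with the smallest p in each direction per complex, the isoform pairs, and up to 3 genes of smallest p from each other list in the mean low sodium effect. Members named beyond these were chosen after their values were seen. Members and lists were chosen with earlier results of these data known. Slides are replicate numbers per the file headers, so the numbers pair the arrays. After each probe's group mean was subtracted, same-numbered arrays of different groups correlated over 0.1 in 15 of 18 pairs. By number the count was 6 of 6 for 1, 5 of 6 for 2 and 4 of 6 for 3. Arrays of different numbers and groups did so in 5 of 36 pairs. Subtracting the group mean lowers these correlations where the same-numbered ones are positive, so the 2 counts are not independent. The slide block changed no call. The fit was tested on simulated data, and 26 alternatives were run.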

Additional observations from a re-analysis of the deposited data

How the results depend on the processing

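No member was called in any of the 7 comparisons under any of the 26 alternatives (smallest adjusted p in limma 0.135), including the fit with the replicate block, which kept 0 calls. Members at an unadjusted p under 0.05 numbered at most 6, in low sodium without AngII and in the mean low sodium effect. In the main fit, 3.09% of all genes were higher and 4.71% lower at that level in the first comparison. In the second the shares were 4.46% and 9.31%. The shares under the alternatives are not given here, so that count cannot be set against them. With array weights 40 of 46 members were above 0 in the mean low sodium effect. Taking the percentile over probes counted once was chosen after seeing the data. Isoform pairs were not run without the filter, with the all-array filter or with array weights. Under normexp, the complex V median of the low sodium effect without AngII was 0.14, Cox6a2 minus Cox6a1 in the mean low sodium effect was -0.26 (exact permutation, adjusted p = 0.04), Cox4i2 minus Cox4i1 in the mean AngII effect was -0.0099 and Uqcrfs1 in the AngII effect on normal sodium was -0.032. Sdhc in the low sodium effect without AngII was 0.0088 with array weights, and Atp5f1d in the mean AngII effect was 0.12 as the mean of its probes. The used probe of Atp5f1d stood at -0.070 and the other at 0.31. That other probe had a level of -6.56 and was well above background on 8 of 12 arrays. The cause of the other changes was not tested.

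Leaving out arrays or slides gave these ranges. The member median ran from -0.080 to 0.050 for AngII on low sodium and from -0.056 to 0.085 for low sodium without AngII. It ran from -0.085 to 0.027 for AngII on normal sodium, from 0.023 to 0.14 for low sodium with AngII, from -0.065 to 0.0032 for the mean AngII effect and from -0.016 to 0.11 for the interaction. For AngII on low sodium, complex II ran from -0.099 to -0.0074 and complex IV from -0.079 to 0.086. For low sodium without AngII, complex V ran from 0.017 to 0.15, and in the mean low sodium effect complex II from 0.059 to 0.15. In the mean low sodium effect, Cox6a2 minus Cox6a1 ran from -0.31 to -0.21 (exact permutation, adjusted p = 0.04 without low sodium replicate 3), Cox4i2 minus Cox4i1 from -0.41 to -0.29 (exact permutation, adjusted p = 0.04 without normal sodium replicate 2), Cox8b minus Cox8a from -0.010 to 0.027 and Cox6b2 minus Cox6b1 from -0.32 to 0.15. In the mean AngII effect, Cox4i2 minus Cox4i1 ran from -0.14 to 0.15 and Cox6b2 minus Cox6b1 from -0.46 to 0.19. With a slide left out, 36 arrangements allow no p under 0.0556. Single genes that turned were, for AngII on low sodium, Uqcrq (-0.11 to 0.38), Cox5a (-0.27 to 0.0078) and Atp5f1b (-0.27 to 0.053), and for the mean AngII effect, Cox4i2 (-0.067 to 0.17) and Sdhb (-0.0078 to 0.115). Atp5mc2 ran from -0.25 to 0.025 for low sodium with AngII and from -0.225 to 0.0040 without it, Sdhc from -0.37 to 0.032 for low sodium without AngII, and Uqcr11 from -0.22 to 0.013 for the mean low sodium effect.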
